A study of Mus musculus with 4 samples.

Results

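CAR (Nr1i3), PXR (Nr1i2) and AHR (Ahr) are the receptors through which hepatocytes sense foreign chemicals, and Rxra, Arnt and Por encode their shared partners and the reductase that powers the enzymes they induce. These 6 genes were taken by symbol, and all 6 were found among the 24063 gene symbols of 4 poly-A RNA libraries from mouse tumours. Each gene is given by 1 transcript row, the one with the highest mean count. The levels of the 6 genes were set against the spread between tumours of Cyp2b10, Cyp3a11 and Cyp1a2, 3 cytochrome P450 genes known as targets of CAR, PXR and AHR.

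All 4 libraries carry the same labels, MYC;PMEPA1 overexpression in strain C57BL/6 (C57BL6/J in the titles), delivered by hydrodynamic tail vein injection and with no treatment, and the series describes the tumours as hepatocellular carcinomas. Hydrodynamic injection delivers plasmids chiefly to hepatocytes. Of the genes named, MYC encodes a growth-promoting transcription factor and PMEPA1 a membrane protein of the TGF-beta pathway. The sources used here do not name the promoter of the delivered genes or the age of the animals. The tumours bear the replicate numbers 1, 5, 9 and 10, and a passage number, a term of cell culture, is attached to each. Nothing in the labels says that they came from separate animals, so every test measures only the spread between these samples, which may be technical. With 1 group and no control group, no comparison between conditions was possible, and the data show how the genes differed from tumour to tumour.

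PXR and CAR are nuclear receptors that bind DNA as heterodimers with RXR alpha. PXR is activated by many drugs and steroids, and CAR is held in the cytoplasm by chaperones until an inducer or reduced growth factor signalling releases it. AHR is a bHLH-PAS protein that leaves its own cytoplasmic chaperone complex when it binds planar aromatic ligands and then pairs with ARNT. In liver, CAR is known above all for induction of the Cyp2b genes, PXR for the Cyp3a genes and AHR for the Cyp1 genes. The P450 enzymes receive their electrons from P450 reductase, the product of Por. The activity of all 3 receptors is controlled by ligands and by their place in the cell, which RNA levels do not report.

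The promoters of the 3 target P450 genes are shown because they are the DNA on which these receptors are read out, although the far enhancers of these genes lie outside the window. The sequences are from RefSeq on GRCm38.p6, and each spans 300 bases that run from upstream of the start site to just past it. Capitals mark matches, on either strand, to the nuclear receptor half-site AGGTCA, to its variant AGTTCA or to the AHR core TNGCGTG. The windows lie at chr7:25897408-25897707 on the plus strand for Cyp2b10, chr5:145879805-145880104 on the minus strand for Cyp3a11 and chr9:57683606-57683905 on the minus strand for Cyp1a2.
Cyp2b10: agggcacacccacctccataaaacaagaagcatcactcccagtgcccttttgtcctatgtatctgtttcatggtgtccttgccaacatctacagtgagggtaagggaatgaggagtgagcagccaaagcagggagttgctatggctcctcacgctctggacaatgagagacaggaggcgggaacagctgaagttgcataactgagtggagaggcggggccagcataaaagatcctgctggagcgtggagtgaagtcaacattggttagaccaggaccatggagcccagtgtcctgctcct
Cyp3a11: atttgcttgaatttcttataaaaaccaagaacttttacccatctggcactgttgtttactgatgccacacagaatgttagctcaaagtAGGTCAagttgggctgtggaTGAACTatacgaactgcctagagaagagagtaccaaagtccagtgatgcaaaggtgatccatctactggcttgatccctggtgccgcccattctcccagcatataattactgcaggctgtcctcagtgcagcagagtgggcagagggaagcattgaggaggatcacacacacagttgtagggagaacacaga
Cyp1a2: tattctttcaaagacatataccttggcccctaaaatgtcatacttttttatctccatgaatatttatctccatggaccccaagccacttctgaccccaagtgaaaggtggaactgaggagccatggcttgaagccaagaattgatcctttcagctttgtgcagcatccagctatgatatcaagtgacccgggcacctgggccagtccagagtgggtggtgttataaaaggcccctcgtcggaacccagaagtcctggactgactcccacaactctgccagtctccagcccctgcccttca

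The Cyp3a11 window held AGGTCA at position -162 on its own strand and AGTTCA at position -142 on the opposite strand, seen above as TGAACT, with positions counted from the start site, and the matches did not overlap. The Cyp2b10 and Cyp1a2 windows held none of the 3 motifs. Among 32851 mouse promoters of this length, AGGTCA was found in 16.3%, AGTTCA in 14.0% and TNGCGTG in 5.07%, so a match is a description of the letters and no more. Promoters were matched for 8 of the 9 genes, all but Ahr. Of the 6 receptor and partner genes only Rxra held a match, with AGGTCA at positions -87 and -48 of its second start site.

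Library depth was similar, with gene totals of 51939623, 41547938, 48931408 and 41948878 counts in tumours 1, 5, 9 and 10. Levels are given as CPM, the share of each library's reads scaled by TMM to a common size, and 3 counts, the limit that a count of 0 allows, stood at 0.0524, 0.0700, 0.0558 and 0.0892 CPM. TMM moved tumour 10 apart from the rest, and scaling by library totals alone would shift its median gene by -0.32 log2 units, against 0.14, 0.04 and 0.13 in tumours 1, 5 and 9. All differences are relative to TMM. Genes were taken as expressed where the mean over the tumours reached 1 CPM, which held for 13129 genes and for all 6 receptor and partner genes. The label of a hepatocyte tumour was checked against 9 hepatocyte genes, all detected in each library, of which Alb, the albumin gene, stood between 4520 (tumour 5) and 13400 CPM (tumour 10).

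Of the receptor genes, Nr1i2, which encodes PXR, had the highest mean level per length. Nr1i2 (ENSMUSG00000022809.4, chr16:38248323-38294824, minus strand, GRCm38) stood at 81.1, 85.7 and 88.1 CPM in tumours 1, 5 and 9 and at 411 CPM in tumour 10, from 4642, 3670, 4731 and 13818 counts. Its mean was 166 ± 163 CPM (SD, n = 4). Tumour 10 was thus far above a tight group of 3. The CPM of tumour 10 was 4.67 times that of tumour 9 (95% exact binomial interval of the counts 4.51 to 4.82), whereas tumours 9 and 5 did not differ beyond counting error, with a ratio of 1.03 (0.984 to 1.07). Such intervals cover counting error only. Set against the other 3 tumours by edgeR's quasi-likelihood test, tumour 10 did not pass the threshold of 0.05. The log2 difference of Nr1i2 was 2.27 with a standard error of 0.21 and an edgeR adjusted p of 0.104. The direction was the same in every alternative, with log2 differences from 2.24 to 2.28 and adjusted p from 4.03e-15 (DESeq2) to 0.279, and 4 alternatives passed.

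CAR followed another order. Nr1i3 (ENSMUSG00000005677.14, chr1:171213970-171220701, plus strand, GRCm38) stood at 22.8, 19.3, 44.5 and 10.7 CPM in tumours 1, 5, 9 and 10, from 1304, 828, 2392 and 360 counts, with a mean of 24.3 ± 14.4 CPM (SD, n = 4). It was highest in tumour 9 and lowest in tumour 10, the tumour with the most Nr1i2. The ratio of tumour 9 to tumour 10 was 4.16 (3.72 to 4.66), and that of tumours 1 and 5, the nearest pair, was 1.18 (1.08 to 1.29). In the edgeR test the log2 difference of tumour 10 from the rest was -1.43 with a standard error of 0.60 (adjusted p = 0.739), and that of tumour 9 was 1.34 (adjusted p = 0.693). Neither passed. The 3 deposited transcript rows of Nr1i3 gave nearly the same counts, and 2 of them gave identical ones.

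The exons of Nr1i3 overlap those of Tomm40l, a mitochondrial import gene on the opposite strand. In GENCODE M21, 936 of the 1414 exon bases of the Nr1i3 transcripts matched to RefSeq are shared with those of Tomm40l matched to RefSeq. Tomm40l stood at 59.8, 45.1, 68.0 and 58.8 CPM in tumours 1, 5, 9 and 10. The sources used here do not say whether the counts used strand, so the reads of these genes cannot be told apart and the level of Nr1i3 is uncertain. Both genes were highest in tumour 9 and second in tumour 1, whereas the lowest tumour was tumour 5 for Tomm40l and tumour 10 for Nr1i3.

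AHR had the widest spread of the 6 genes. Ahr (ENSMUSG00000019256.17, chr12:35497974-35535038, minus strand, GRCm38) stood at 15.5, 5.16, 4.91 and 72.4 CPM in tumours 1, 5, 9 and 10, from 889, 221, 264 and 2436 counts, with a mean of 24.5 ± 32.3 CPM (SD, n = 4). Tumour 10 was highest, tumour 1 came second, and tumours 5 and 9 were low and did not differ beyond counting error, with a ratio of 1.05 (0.874 to 1.26). The level in tumour 10 was 14.7 times that in tumour 9 (13.0 to 16.8) and 4.66 times that in tumour 1 (4.32 to 5.04). The edgeR log2 difference of tumour 10 from the others was 3.08 with a standard error of 0.71 (adjusted p = 0.367). Over the alternatives the adjusted p ran from 0.00402 (DESeq2) to 0.563, and only DESeq2 passed. The long non-coding gene Gm48236 overlaps Ahr on the opposite strand, in 127 of 6163 annotated exon bases. Of the 5548 exon bases in the GENCODE transcripts of Ahr matched to RefSeq, 0 were shared.

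Rxra, the common partner of PXR and CAR, was abundant and even in 3 tumours. Rxra (ENSMUSG00000015846.14, chr2:27676440-27762957, plus strand, GRCm38) stood at 205, 207, 234 and 475 CPM in tumours 1, 5, 9 and 10, from 11761, 8875, 12549 and 15963 counts, with a mean of 280 ± 130 CPM (SD, n = 4). Tumours 1 and 5 did not differ beyond counting error, with a ratio of 1.01 (0.981 to 1.04), and tumour 10 was 2.03 times tumour 9 (1.99 to 2.08). In the edgeR test the log2 difference of tumour 10 was 1.14 with a standard error of 0.23 (adjusted p = 0.279). The adjusted p ran from 0.00144 (DESeq2) to 0.636 over the alternatives.

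Arnt, the partner of AHR, varied least. Arnt (ENSMUSG00000015522.18, chr3:95434388-95497240, plus strand, GRCm38) stood at 58.0, 69.4, 55.7 and 113.5 CPM in tumours 1, 5, 9 and 10, from 3321, 2971, 2991 and 3818 counts, with a mean of 74.1 ± 26.9 CPM (SD, n = 4). Tumour 10 was again highest, at 1.64 times tumour 5 (1.56 to 1.72), and tumours 1 and 9 did not differ beyond counting error, with a ratio of 1.04 (0.992 to 1.10). The edgeR log2 difference of tumour 10 was 0.90 with a standard error of 0.24 (adjusted p = 0.428), and no alternative passed.

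Por (ENSMUSG00000005514.14, chr5:135670033-135735326, plus strand, GRCm38) stood at 195, 259, 284 and 828 CPM in tumours 1, 5, 9 and 10, from 11146, 11073, 15264 and 27845 counts, with a mean of 391 ± 293 CPM (SD, n = 4). All 4 tumours were set apart beyond counting error, the nearest pair being tumours 9 and 5 with a ratio of 1.10 (1.07 to 1.13). The reductase gene was 2.91 times as high in tumour 10 as in tumour 9 (2.86 to 2.97). The edgeR log2 difference of tumour 10 was 1.75 with a standard error of 0.28 (adjusted p = 0.202), and the adjusted p ran from 4.31e-05 (DESeq2) to 0.419 over the alternatives.

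**Figure D1:**
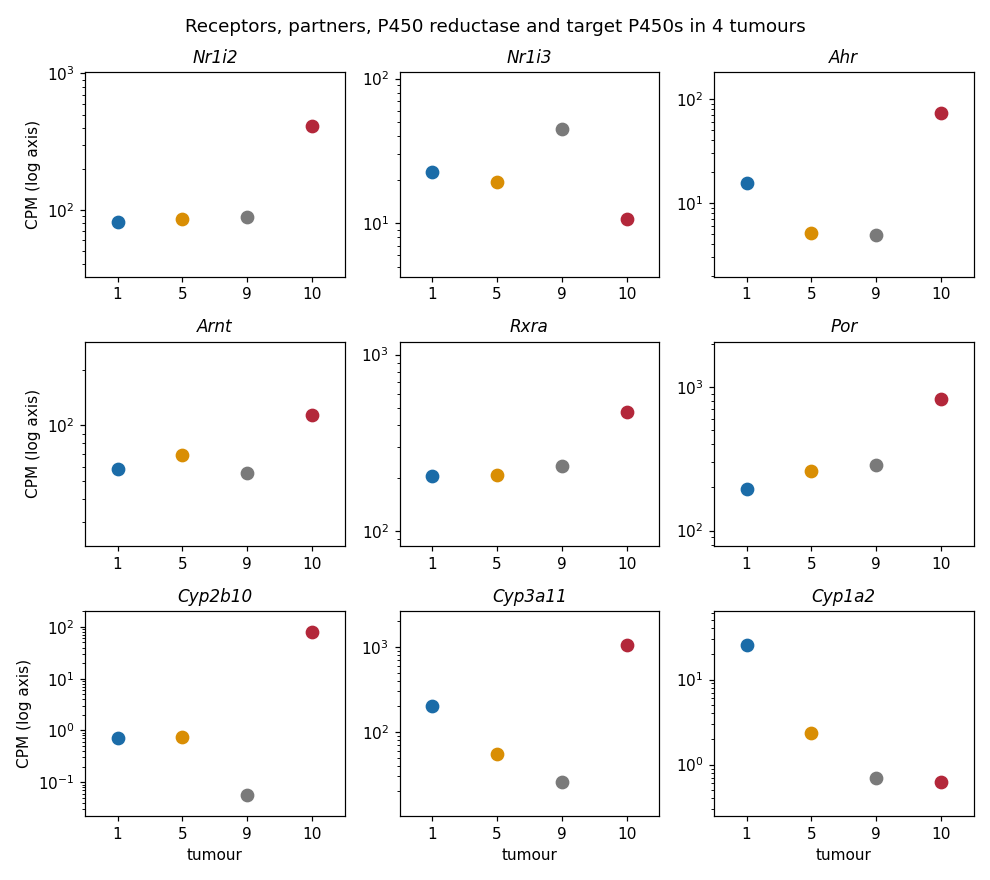
Level of each gene in CPM (log axis, own range per panel) in tumours 1, 5, 9 and 10, 1 point per library. Of the 6 receptor, partner and reductase genes, 5 were highest in tumour 10, while Nr1i3 was highest in tumour 9 at 44.5 CPM and lowest in tumour 10 at 10.7 CPM.

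Across the 6 genes, 5 were highest in tumour 10 and 1 in tumour 9. For comparison, 35.8% of all expressed genes were highest in tumour 10 and 21.6% in tumour 9. With library totals in place of TMM the tumour in which each of the 6 genes was highest did not change, whereas 2633 of 13146 genes were then highest in tumour 10. At an unadjusted p under 0.05, edgeR put 5 of the 6 genes higher in tumour 10, with 13.9% of all genes higher there and 8.23% lower. After adjustment over all genes and the 4 tumours together, edgeR called 0 of 13129 genes (0%) in each of tumours 1, 5, 9 and 10. In tumour 10, 1824 genes were higher and 1080 lower at an unadjusted p under 0.05, and at an adjusted p under 0.05 DESeq2 called 1357 genes and limma-voom 0.

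Between genes, levels were compared per kilobase of transcript. Por had a mean of 159 ± 119 CPM per kilobase (SD, n = 4), Nr1i2 65.9 ± 64.5, Rxra 53.2 ± 24.7, Nr1i3 17.2 ± 10.2, Arnt 17.0 ± 6.16 and Ahr 4.46 ± 5.88. Por, Nr1i2 and Rxra overlapped within 1 SD of their means, as did Nr1i3 and Arnt, whereas Rxra and Nr1i3, and Arnt and Ahr, did not. Among the receptors, Nr1i2 overlapped Nr1i3 and Nr1i3 overlapped Ahr within 1 SD, so the means do not separate them. Within each tumour the picture was sharper. The PXR to CAR ratio per kilobase, Nr1i2 over Nr1i3, was 1.99, 2.47 and 1.10 in tumours 1, 5 and 9 and 21.4 in tumour 10. By these counts PXR RNA exceeded CAR RNA in every tumour, by little in tumour 9 and by the most in tumour 10. Because Nr1i3 shares exon bases with Tomm40l and its level is uncertain, so are these ratios and the order of PXR and CAR.

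The balance of receptor and partner RNA also differed between tumours. Rxra over Nr1i2 per kilobase was 1.22, 1.16 and 1.27 in tumours 1, 5 and 9 and 0.554 in tumour 10, where the receptor gene exceeded its partner. Arnt over Ahr per kilobase was 4.70, 16.9, 14.2 and 1.97 in tumours 1, 5, 9 and 10, so the partner exceeded the receptor in all 4. Por over Cyp3a11 per kilobase was 0.801, 3.89, 9.20 and 0.657. Tumours 5 and 9 thus had more RNA of the reductase than of this P450, and tumours 1 and 10 had less.

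Over the 4 tumours the target P450 genes spread more widely than the receptor genes. Cyp2b10 (ENSMUSG00000030483.14, chr7:25897620-25926624, plus strand), the classical CAR target, stood at 0.716, 0.747, 0.0558 and 80.5 CPM in tumours 1, 5, 9 and 10, from 41, 32, 3 and 2707 counts. It was abundant in tumour 10 alone, near the limit of detection in tumour 9, and at equal low levels in tumours 1 and 5, whose ratio was 1.04 (0.636 to 1.70). The ratio of tumour 10 to tumour 5 was 108 (76.1 to 158). Against the 3 counts of tumour 9 it was 1441, with a wide interval of 493 to 6994. Cyp2b10 counted as expressed through tumour 10 only. The edgeR log2 difference of tumour 10 was 7.31, given as a size only because the gene passed the filter through that tumour.

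Cyp3a11 (ENSMUSG00000056035.8, chr5:145854426-145879964, minus strand), the classical PXR target, stood at 203, 55.5, 25.8 and 1053 CPM in tumours 1, 5, 9 and 10, from 11627, 2379, 1387 and 35411 counts. No pair of tumours overlapped within counting error, and the order was tumour 10, 1, 5 and 9. Tumour 10 was 5.18 times tumour 1 (5.08 to 5.29) and 40.8 times tumour 9 (38.7 to 43.1). The edgeR log2 difference of tumour 10 was 3.47 (adjusted p = 0.533), and no alternative passed. The Cyp2b and Cyp3a families hold closely related genes, so reads could be split among them and these levels are uncertain.

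Cyp1a2 (ENSMUSG00000032310.4, chr9:57676937-57683703, minus strand), the hepatic AHR target, went another way. It stood at 25.4, 2.38, 0.689 and 0.624 CPM in tumours 1, 5, 9 and 10, from 1453, 102, 37 and 21 counts. It was highest in tumour 1 and lowest in tumour 10, the tumour with the most Ahr. Tumour 1 was 10.7 times tumour 5 (8.72 to 13.2), and tumours 9 and 10 did not differ beyond counting error, with a ratio of 1.10 (0.629 to 1.98). The edgeR log2 difference of tumour 1 from the others was 4.36 with a standard error of 0.93 (adjusted p = 0.328), and over the alternatives the adjusted p ran from 0.00309 (DESeq2) to 0.999.

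The spread was measured as the SD of log2 CPM over the 4 tumours, with a prior count of 2. All 6 receptor, partner and reductase genes and all 3 P450 genes varied beyond counting error, as did 98.7% of expressed genes. The SDs were 1.82 for Ahr, 1.14 for Nr1i2, 0.91 for Por, 0.84 for Nr1i3, 0.58 for Rxra and 0.47 for Arnt, with a median of 0.88. Those of the P450 genes were 4.09 for Cyp2b10, 2.45 for Cyp1a2 and 2.34 for Cyp3a11. An SD of at least 1 was reached by 2 of the 6 genes (Nr1i2 and Ahr), by all 3 P450 genes and by 16.6% of expressed genes. The median SD of all expressed genes was 0.45. Over the 4 tumours each P450 had a larger SD than any of the 6 genes, as a description with no test. Without tumour 1 this order changed, since Cyp1a2 then had an SD of 1.04, below those of Ahr (2.21) and Nr1i2 (1.29).

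**Figure D2:**
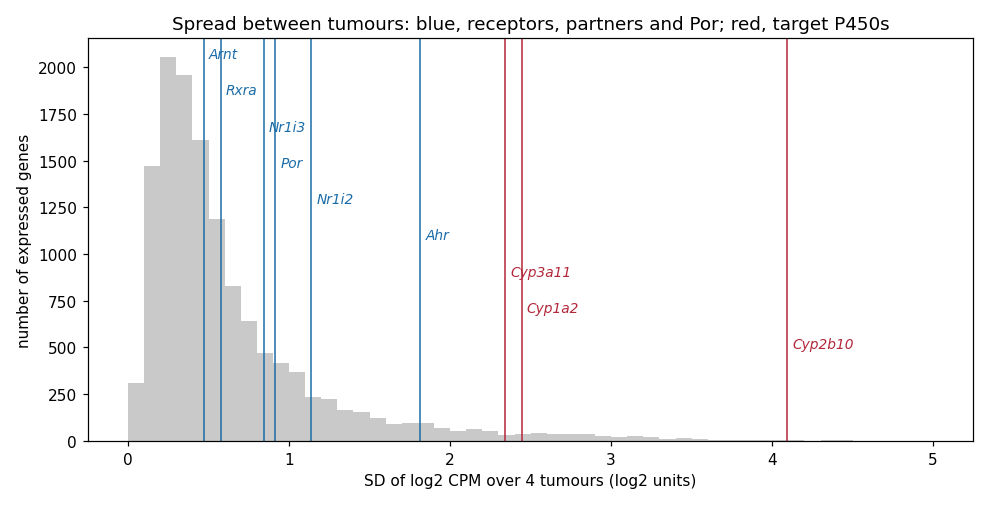
Histogram of the SD of log2 CPM over 4 tumours for 13129 expressed genes (x axis in log2 units, y axis number of genes), with lines at the 6 receptor, partner and reductase genes (blue) and the 3 target P450 genes (red). The blue lines run from 0.47 (Arnt) to 1.82 (Ahr) and the red lines from 2.34 (Cyp3a11) to 4.09 (Cyp2b10), while the median of all genes is 0.45.

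As percentiles of all expressed genes, the SDs stood at 53.3 for Arnt, 63.5 for Rxra, 78.5 for Nr1i3, 80.8 for Por, 86.9 for Nr1i2 and 94.6 for Ahr. The P450 genes stood at 97.1 (Cyp3a11), 97.4 (Cyp1a2) and 99.8 (Cyp2b10). The dimerization partners Arnt and Rxra were therefore near the middle of the genome-wide spread and the ligand-binding receptors above it. As highest over lowest CPM, the range was 2.04-fold for Arnt, 2.31-fold for Rxra, 4.16-fold for Nr1i3, 4.25-fold for Por, 5.07-fold for Nr1i2 and 14.7-fold for Ahr. It was 40.7-fold for Cyp1a2, 40.8-fold for Cyp3a11 and 1441-fold for Cyp2b10.

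Much of the spread of the 6 genes came with tumour 10. Without it, the range was 1.09-fold for Nr1i2 (SD 0.06), 1.14-fold for Rxra (SD 0.10), 1.25-fold for Arnt (SD 0.17), 1.46-fold for Por (SD 0.28), 2.30-fold for Nr1i3 (SD 0.63) and 3.16-fold for Ahr (SD 0.94), with a median SD of 0.22. None of the 6 then reached an SD of 1, against 11.4% of all expressed genes. The P450 genes still differed widely among tumours 1, 5 and 9, by 7.87-fold for Cyp3a11 (SD 1.51), 13.4-fold for Cyp2b10 (SD 1.75, again resting on the 3 counts of tumour 9) and 36.9-fold for Cyp1a2 (SD 2.61). In these 3 tumours Nr1i2 and Rxra were thus nearly constant while Cyp3a11 was not. Other single tumours mattered for the P450 genes: without tumour 9 the range of Cyp2b10 was 112-fold, and without tumour 1 that of Cyp1a2 was 3.81-fold (SD 1.04).

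**Figure D3:**
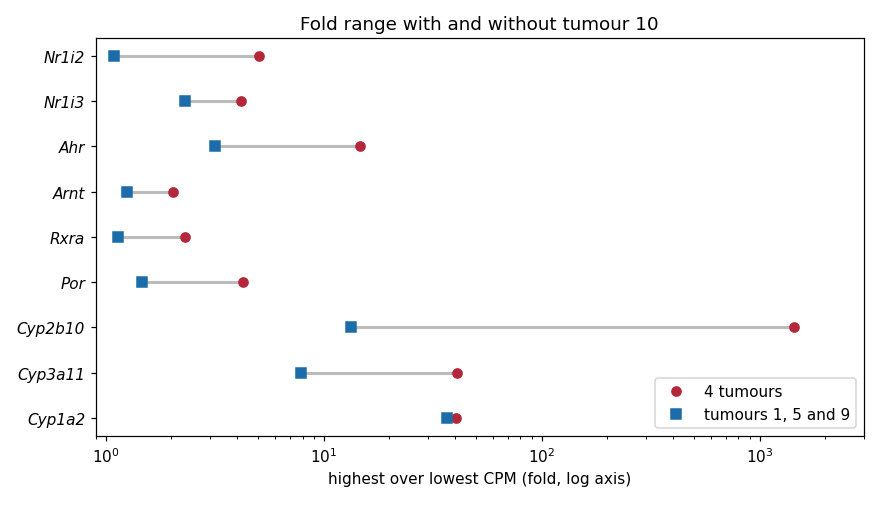
Highest over lowest CPM of each gene (x axis, fold, log axis) over the 4 tumours (red circles) and over tumours 1, 5 and 9 (blue squares). Leaving out tumour 10 brought Nr1i2 from 5.07-fold to 1.09-fold, whereas Cyp1a2 stayed at 36.9-fold.

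The wider list of 34 CAR and PXR targets held 29 expressed genes, 7 of them through 1 tumour only. The 7 were Cyp2b10, through tumour 10, and Cyp2b9, Cyp2a4, Cyp2c29, Cyp2c38, Cyp2c50 and Cyp2c54, through tumour 1. Their highest tumour and wide spread follow from the filter, and they are kept in the counts below. Of the 29, 25 had an SD of at least 1, with a median SD of 2.14. Over all expressed genes that share was 16.6%, the background for each list below when all 4 tumours are used. Tumour 10 was highest for 16 genes, tumour 1 for 8, tumour 5 for 4 and tumour 9 for 1, beside 35.8%, 21.4%, 21.2% and 21.6% of all genes. Most of the 8 in tumour 1 are genes that counted as expressed through that tumour only, so this count is a description. Tumour 9, where Nr1i3 was highest, was lowest for 18 of the 29, beside 25.5% of all genes. At an unadjusted p under 0.05 in edgeR, 14 were higher and 1, the efflux transporter gene Abcc4, was lower in tumour 10, beside 13.9% and 8.23% of all genes, and none passed the adjusted threshold. Of the 14, Cyp2b10 counted as expressed through tumour 10 alone.

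The targets divided by the tumour in which they were highest. Ugt1a1, which conjugates bilirubin, stood at 70.3, 62.7, 45.6 and 770 CPM in tumours 1, 5, 9 and 10. Its first exon is its own but its other exons are shared with the rest of the Ugt1a cluster, so its reads are uncertain. Alas1, the first enzyme of haem synthesis, stood at 60.1, 69.1, 49.3 and 635 CPM. Both were highest in tumour 10 and lowest in tumour 9. Abcc2, a canalicular exporter, was even by comparison, at 169, 342, 130 and 304 CPM.

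Other targets with their highest level in tumour 10 differed more between tumours. Aldh1a7, an aldehyde dehydrogenase, stood at 27.1, 49.2, 6.09 and 710 CPM in tumours 1, 5, 9 and 10, and Ces2a, a carboxylesterase, at 18.2, 28.2, 12.7 and 423 CPM. These genes too were lowest in tumour 9. Slco1a4, an organic anion uptake transporter, stood at 7.51, 1.24, 1.04 and 118 CPM. Gstm3, a glutathione transferase, was highest in tumour 5 in place of tumour 10, at 84.1, 389, 5.96 and 318 CPM.

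Of the expressed genes of this list, Cyp2b9 and the Cyp2c genes other than Cyp2c55 were highest in tumour 1. Cyp2b9, Cyp2c29, Cyp2c38, Cyp2c50 and Cyp2c54 counted as expressed through tumour 1 alone, so their place there is a description with no test. Cyp2c29 stood at 18.7, 1.59, 0.242 and 0.416 CPM in tumours 1, 5, 9 and 10, Cyp2c50 at 18.3, 1.68, 0.428 and 0.178 CPM and Cyp2c54 at 4.54, 0.444, 0.112 and 0.119 CPM. Cyp2c38 stood at 4.79, 0.163, 0.149 and 0.119 CPM, and Cyp2b9 at 4.21, 0.117, 0.186 and 0 CPM, the last from 0 counts. All 5 thus shared their highest tumour with Cyp1a2 and not with Cyp3a11. Cyp2c55 stood at 1.82, 8.78, 0.0931 and 43.6 CPM, with its highest level in tumour 10. The Cyp2c genes are close copies too, and their reads are uncertain.

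**Figure D4:**
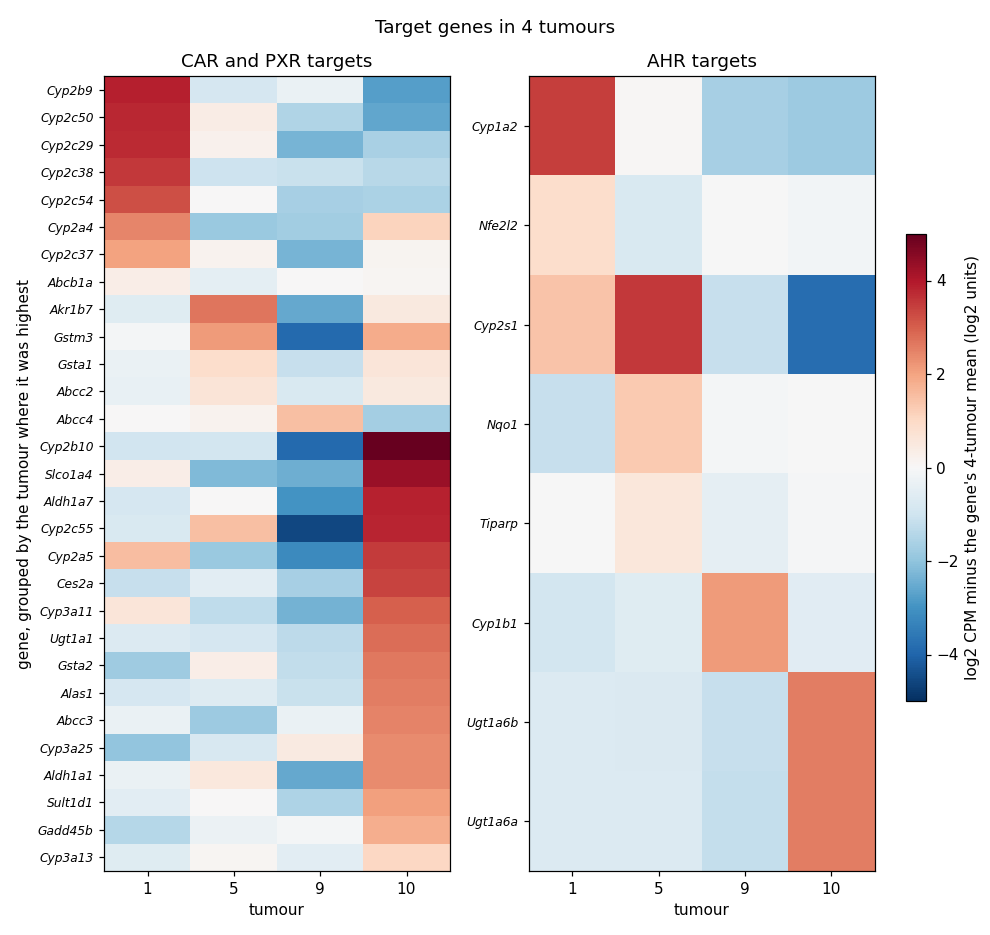
Log2 CPM minus the 4-tumour mean of each gene (colour, log2 units) for the expressed CAR and PXR targets (left) and for 8 of the 9 expressed AHR targets (right) in tumours 1, 5, 9 and 10. Of the 29 CAR and PXR targets, 16 were highest in tumour 10 and 8 in tumour 1, most of these 8 counted as expressed through tumour 1 only. The 8 AHR targets drawn were highest in different tumours.

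The AHR targets were highest in different tumours. Of 12 listed genes 9 were expressed, 7 of these with an SD of at least 1 (median SD 1.71), beside 16.6% of all genes. The highest tumour was tumour 1 for 2 genes, tumour 5 for 3, tumour 9 for 1 and tumour 10 for 3. Over all genes the shares were 21.4%, 21.2%, 21.6% and 35.8%, so these few genes lay near the background. The most widely used AHR readouts were nearly silent. Cyp1a1 stood at or under 0.140 CPM in all 4 tumours, from 8, 3, 4 and 0 counts in tumours 1, 5, 9 and 10, and Ahrr, which encodes the repressor of AHR, at or under 0.140 CPM from 8, 1, 3 and 3 counts. Tiparp, a mono-ADP-ribosyltransferase that restrains AHR, was the most even of the expressed targets at 20.4, 30.6, 15.3 and 19.9 CPM.

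Other AHR targets took orders of their own. Cyp1b1 was highest in tumour 9, at 1.19, 1.49, 10.2 and 1.55 CPM in tumours 1, 5, 9 and 10. Nqo1, a quinone reductase, stood at 0.751, 4.39, 1.60 and 1.69 CPM, and Cyp2s1 at 4.96, 21.2, 0.800 and 0.0892 CPM, both highest in tumour 5. Nfe2l2, the regulator of the antioxidant response, stood at 113, 36.3, 61.2 and 56.2 CPM. Ugt1a6a and Ugt1a6b followed Ugt1a1, with whose cluster they share exons, Ugt1a6a at 67.5, 66.5, 47.2 and 629 CPM and Ugt1a6b at 66.8, 64.2, 48.6 and 629 CPM.

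The genes listed as cytoplasmic partners or as regulators of CAR and AHR were far more even. All 9 were expressed, 1 had an SD of at least 1 (0 without tumour 9) and the median SD was 0.32. Hsp90ab1, the main constitutive HSP90 chaperone, stood at 4015, 3758, 3632 and 3272 CPM in tumours 1, 5, 9 and 10, and Hsp90aa1, its inducible form, at 1690, 1242, 831 and 749 CPM. Rack1, listed under its older symbol Gnb2l1, stood at 1374, 1614, 1375 and 2070 CPM. The exception was Egfr, the growth factor receptor whose signalling keeps CAR in the cytoplasm, at 11.3, 12.4, 1.88 and 13.9 CPM. Its low tumour was tumour 9, which had the most Nr1i3 and the least Cyp2b10.

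The coactivators and corepressors of nuclear receptors were lowest in tumour 10 more often than highest there. All 11 were expressed, 1 had an SD of at least 1 (0 without tumour 5 or without tumour 9, median SD 0.41), and 7 were lowest in tumour 10, beside 32.4% of all genes. With library totals in place of TMM, 9 of 11 were lowest there beside 53.3% of all genes. At an unadjusted p under 0.05 in edgeR, 4 were lower in tumour 10 (Ncoa2, Ncoa3, Ncoa6 and Ep300), beside 8.23% of all genes. Ncor1 stood at 194, 160, 139 and 119 CPM in tumours 1, 5, 9 and 10 and the acetyltransferase gene Ep300 at 64.4, 71.2, 61.3 and 35.4 CPM. Ppargc1a, the PGC-1 alpha coactivator, was the one with the largest SD (1.09), at 15.7, 20.9, 4.09 and 6.57 CPM.

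Among 11 hepatocyte transcription factors that act upstream of Nr1i2 and Nr1i3, all were expressed and 1 had an SD of at least 1 (median SD 0.45). Tumour 10 was highest for 6 with TMM, beside 35.8% of all genes, and for 3 with library totals, beside 20% of all genes. Hnf4a, the master regulator of hepatocyte genes, stood at 508, 567, 382 and 809 CPM in tumours 1, 5, 9 and 10, Cebpa at 153, 109, 175 and 395 CPM and Cebpb at 74.8, 93.7, 104 and 246 CPM. Foxa1 split the tumours in another way. It stood at 15.3 and 14.6 CPM in tumours 1 and 10 and at 0.210 and 0.223 CPM in tumours 5 and 9, the pair with the lowest Ahr. The glucocorticoid receptor gene Nr3c1 was even at 84.4, 99.2, 74.7 and 85.2 CPM.

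Of 14 other genes of the RXR family and its partners, 12 were expressed, 1 of them, Rxrg, through 1 tumour only. An SD of at least 1 was reached by 2 (Rxrg and Pparg) and, without tumour 10, by 0, and the median SD was 0.41. Tumour 10 was highest for 9 of the 12 with TMM, beside 35.8% of all genes, and for 6 with library totals, beside 20% of all genes. Rxrb was the most even, at 85.5, 83.4, 73.2 and 86.0 CPM in tumours 1, 5, 9 and 10, whereas Rxrg was seen almost only in tumour 10, at 0.245, 0.0700, 0.0744 and 8.71 CPM. Pparg, the adipogenic PPAR, stood at 2.57, 1.52, 5.97 and 69.2 CPM. Nr1h4, the bile acid receptor FXR, stood at 31.2, 35.4, 66.4 and 122 CPM and Ppara, the fatty acid sensor that is also on the previous list, at 80.3, 93.6, 99.7 and 120 CPM.

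Of 11 other bHLH-PAS genes, the family of Ahr and Arnt, 6 were expressed. An SD of at least 1 was reached by 2 of them (1 without tumour 10, median SD 0.62), beside 16.6% of all genes. In tumour 10, 1 was highest, beside 35.8% of all genes. Hif3a stood at 146, 124, 174 and 31.3 CPM in tumours 1, 5, 9 and 10 and Hif1a, the hypoxia factor that also pairs with ARNT, at 81.2, 74.9, 120 and 51.2 CPM. Both were lowest in tumour 10, where Ahr and Arnt were highest. Epas1 stood at 39.8, 98.0, 32.8 and 48.5 CPM and the clock gene Arntl at 1.89, 3.08, 10.2 and 16.3 CPM.

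The P450 genes that Por serves beyond the CAR, PXR and AHR targets also varied widely. Of 20 listed, 19 were expressed (3 through 1 tumour only), 15 had an SD of at least 1 (median SD 1.77) and 12 were highest in tumour 10, beside 35.8% of all genes. Cyp2e1, the ethanol-oxidizing P450, stood at 205, 12.4, 6.66 and 203 CPM in tumours 1, 5, 9 and 10, high in the same pair of tumours as Foxa1. Cyp4a14, a fatty acid hydroxylase, had the largest SD (3.19), at 16.5, 0.630, 1.94 and 96.4 CPM. Cyp2d26 was highest in tumour 9, at 154, 242, 454 and 268 CPM, and Cyp2d22 in tumour 10, at 39.9, 49.7, 64.8 and 143 CPM.

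The other electron partners were closer to Por itself. All 9 were expressed and 1 had an SD of at least 1 (median SD 0.59), a count that became 0 without tumour 5 and 2 without tumour 1, 9 or 10. In all, 7 were highest in tumour 10, beside 35.8% of all genes, and also with library totals, beside 2633 of 13146 genes. At an unadjusted p under 0.05 in edgeR, 6 were higher there, beside 13.9% of all genes. Cyb5a, which donates electrons to P450 enzymes beside Por, stood at 238, 349, 206 and 465 CPM in tumours 1, 5, 9 and 10, and Cyb5r3, its reductase, at 227, 320, 276 and 513 CPM. Pgrmc1, a haem protein that binds P450 enzymes, stood at 288, 341, 329 and 674 CPM. Sqle, a sterol-synthesis enzyme fed by Por, ran the other way at 80.7, 182, 39.3 and 21.7 CPM.

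The profiles of the 6 genes over the 4 tumours were compared by the root mean square difference of log2 CPM, each centred on its own mean, as a description over 4 libraries. The measure is not scaled to the SD, so genes with small SDs tend to lie close to each other. Arnt and Rxra, the 2 with the smallest SDs (0.47 and 0.58), were the closest pair, at 0.20. Nr1i2 and Por followed at 0.27 and Rxra and Por at 0.31. Nr1i3 was at least 1.11 from every other gene of the 6. Of the P450 genes, Cyp3a11 was closer to Ahr (0.58) than to Nr1i2 (1.33), and Cyp1a2 was 2.76 from Ahr.

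The expressed genes with the profile nearest to each receptor were taken by the same measure. For Nr1i2 they were Suox, the sulphite oxidase (0.04), Grcc10 (0.06) and Mief2, a mitochondrial dynamics gene (0.07). Such profiles were common, with 714 genes (5.44%) within 0.5 of Nr1i2, and for Suox the levels were 5.22, 5.49, 5.36 and 27.1 CPM in tumours 1, 5, 9 and 10. For Nr1i3 they were 4930523C07Rik (0.05), Eva1b (0.06) and Vcan, the matrix proteoglycan versican (0.07), with 962 genes (7.33%) within 0.5. Fewer genes lay near Ahr, with 39 (0.297%) within 0.5, but a fixed distance tends to hold fewer genes around a profile of larger SD. Nearest were Sarm1, an NAD hydrolase (0.21), Hnmt, which methylates histamine (0.22), and Tbc1d30 (0.23). Hnmt counted as expressed through tumour 10 only. Sarm1 stood at 14.0, 3.78, 4.88 and 50.1 CPM.

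For the target P450 genes, which have larger SDs, few profiles were close by this unscaled measure. Within 0.5 of Cyp2b10 lay only 3 expressed genes, Trpm6, a magnesium channel (0.35), and the hydroxysteroid sulphotransferases Sult2a2 (0.41) and Sult2a1 (0.44). Sult2a1 stood at 3.93, 7.89, 0.577 and 358 CPM in tumours 1, 5, 9 and 10 and Trpm6 at 0.384, 0.584, 0.0186 and 85.2 CPM. Sult2a1 and Sult2a2 are close copies, so their reads are uncertain. Trpm6 and Sult2a2, like Cyp2b10, counted as expressed through tumour 10 only, so their likeness to it follows in part from the filter. Nearest to Cyp3a11 were the oxysterol hydroxylase gene Cyp39a1 (0.24), the deiodinase gene Dio1 (0.28) and Acmsd, of tryptophan breakdown (0.32), among 20 genes within 0.5. Cyp39a1 stood at 46.0, 16.1, 8.17 and 223 CPM, and Dio1 counted as expressed through tumour 10 only. Nearest to Cyp1a2 were Cyp2c54 (0.15), Ugt3a2 (0.24) and Tfap2e (0.29), among 7 within 0.5, with Ugt3a2 at 7.69, 0.957, 0.279 and 0.268 CPM. Cyp2c54, Ugt3a2 and Tfap2e counted as expressed through tumour 1 only, so their likeness to Cyp1a2 follows in part from the filter.

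Markers of liver zones and of other cells also differed between the tumours. In bulk RNA, fewer cells of a type and less RNA per cell cannot be told apart. Of 9 hepatocyte genes, 8 were highest in tumour 10, beside 35.8% of all genes. The summed level of the 9 was 10273, 11297, 15720 and 29006 CPM in tumours 1, 5, 9 and 10. Alb weighs heavily in that sum, which hides the low levels of Tat and Tdo2 in tumours 5 and 9. All 8 periportal genes, of which Cps1 is also among the 9, were highest in tumour 10. With library totals in place of TMM 7 were, beside 20% of all genes. The 8 summed to 2679, 2716, 3791 and 15465 CPM. Of 10 pericentral genes 7 were expressed and 5 of these were highest in tumour 1, as Cyp1a2, itself on that list, was. Over all genes 21.4% were highest there, and 1 of the 5 counted as expressed through tumour 1 only. The pericentral sums were 657, 219, 356 and 354 CPM. None of the expressed pericentral genes was highest in tumour 10, although Cyp2e1 stood at 203 CPM there beside 205 CPM in tumour 1. Lgr5, which did not count as expressed, had 0 counts in tumour 10. The part of these markers in the levels of Nr1i2, Ahr, Por and the P450 genes was not tested.

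Of the markers of other cells, all 8 neutrophil genes and all 6 erythroid genes were highest in tumour 9, beside 21.6% of all genes. Tumour 9 had the most Nr1i3 and the least Cyp3a11. The markers summed to 11.5, 13.1, 535 and 23.4 CPM for neutrophils in tumours 1, 5, 9 and 10. For erythroid cells the sums were 80.6, 114, 698 and 88.0 CPM. Macrophage genes summed to 263, 195, 895 and 351 CPM, with 6 of the 9 expressed genes highest in tumour 9, beside the same 21.6%. Of that sum Cd5l alone gave 431 CPM in tumour 9. The other 3 expressed genes, Clec4f, Marco and Vsig4, were highest in tumour 1, beside 21.4% of all genes. They stood at 20.7, 8.67 and 7.48 CPM in tumour 1 and at 0.744, 2.68 and 3.26 CPM in tumour 9. All 9 stellate and fibroblast genes were lowest in tumour 10, beside 32.4% of all genes, and summed to 421, 293, 506 and 112 CPM. Cholangiocyte genes summed to 51.4, 79.5, 15.6 and 14.0 CPM, endothelial genes to 83.8, 82.5, 118 and 86.8 CPM and T cell genes to at most 3.16 CPM. The part of these cells in the levels of the 6 genes was not tested.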

How the data were processed

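Poly-A RNA of 4 tumours, 1 group, was sequenced from TruSeq libraries, per the labels' protocols. The authors' deposited counts are whole reads per RefSeq transcript row. The deposited FPKM and TPM columns, so named per the file headers, were used only to recover transcript lengths. The build GRCm38 and FastQC 0.11.8 come from the submitters' processing notes. For the aligner, the counter and the use of strand, the names were not given in the sources used here. The counts over all 33984 rows were 1.434 to 1.487 times the gene totals because isoforms repeat reads, so 1 row per gene was used.

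The members and gene lists were chosen with earlier results of these data known. Counts were analysed in R 4.3.3 with edgeR 4.0.16 (TMM; factors 1.102, 1.031, 1.098 and 0.8018; prior count 2; mean of at least 1 CPM). Spread beyond counting error used a Poisson chi-square test per gene. Each tumour was set against the other 3 by edgeR's robust two-sided quasi-likelihood test, adjusted by Benjamini-Hochberg over genes and tumours together. The lone tumour is assumed to vary like the rest. Tests were checked on simulated counts. DESeq2 1.42.0, limma 3.58.1, other scalings, filters, row sums and leaving out each tumour were alternatives. Of each list, the 3 expressed genes with the highest mean and the 1 with the largest SD were named, with the 3 nearest profiles of each receptor and P450. Alas1, Aldh1a7, Ces2a, Slco1a4, Gstm3, Abcc4, Cyp2b9, Cyp2a4, the Cyp2c genes, Cyp1a1, Ahrr, Tiparp, Cyp1b1, Nqo1, Cyp2s1, Nr3c1, Pparg, Ncoa2, Ncoa3, Ncoa6, Tat, Tdo2 and Tomm40l were named after their values were seen. So were Lgr5, Cd5l, Clec4f, Marco and Vsig4. A few genes chosen by the rule on means, SDs and profiles are left unreported. Coordinates are those of GENCODE M21. Rack1 and Adgre1 were found under older symbols.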

Additional observations from a re-analysis of the deposited data

Results flagged for a closer look

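In 9 of 61 named genes, 1 tumour stood apart from the other 3 by Dixon's gap ratio on log2 CPM, the gap to the nearest tumour over the whole range, above its 95% critical value. Chance flags about 1 in 20 groups, a rate that does not hold for genes named for a large SD or a near profile. Tumour 10 was the high one for Nr1i2 (gap ratio 0.949) and Rxra (0.847), the receptor and its partner. It was also the high one for Ugt1a1 (0.847), Ugt1a6a (0.862) and Ugt1a6b (0.876), which share exons and so are not separate cases. Suox (0.970), Grcc10 (0.982) and Mief2 (0.889) were named because their profiles are nearest to Nr1i2, so their flags follow from that choice. Tumour 9 was the low one for Egfr (0.896), which was named for the largest SD of its list, so its flag may follow in part from that choice.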

How the results depend on the processing

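No paired analysis was possible because the labels give 1 group. The count of genes called in 1 tumour against the others was 0 for each tumour in edgeR, and moved with the tool: DESeq2 called 29, 45, 318 and 1357 genes in tumours 1, 5, 9 and 10. Without a filter on low counts edgeR called 2, 6 and 123 in tumours 1, 9 and 10, and with adjustment within each tumour 230 in tumour 10. Leaving out 1 tumour gave 0 to 2, 0 to 1, 0 to 28 (the highest without tumour 10) and 0 to 411 (the highest without tumour 9) in tumours 1, 5, 9 and 10. The cause was not tested. The median SD of the 6 receptor, partner and reductase genes ran from 0.22 (without tumour 10) to 1.05 with a tumour left out, and that of the 3 P450 genes from 1.75 to 2.996. Of 107 alternative values of the log2 differences, 0 reversed, 96 stayed on the same side of the threshold and 11 passed it. Passing values of Cyp2b10 carry no weight, since it counted as expressed through tumour 10 only. In all 80 alternatives that gave a value, the 9 genes still varied beyond counting error. Summed rows raised the mean log2 CPM of Nr1i3 to 5.43 and of Rxra to 9.07, since isoforms repeat reads. Depth limits Cyp2b10 in tumour 9, which rests on 3 counts.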
